A study of Mus musculus with 5 samples.

Results

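The 35 genes described here encode the entry of pyruvate into mitochondria, the pyruvate dehydrogenase complex with its kinases and a phosphatase, the enzymes of the tricarboxylic acid (TCA) cycle other than aconitase, and aminotransferases and carriers that exchange its intermediates. They were chosen by name as a pathway, though with earlier results of these data known. All 35 were found among the 13879 genes tested. Expression was measured by sequencing of total RNA from GL261, a mouse glioma cell line. The groups were cells given 1 uM sodium propionate for 24 h (2 libraries, replicates 2 and 3) and cells given 1 uM sodium chloride, the control salt, for 24 h (3 libraries, replicates 1 to 3). No other treatment or genetic change is named in the labels, and they do not say whether the libraries came from separate cultures. What the p-values measure is therefore the spread between libraries, and this may be technical. Propionate replicate 1 was not analysed here. The dose and its unit are as labelled, and nothing in the files allows them to be checked.

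Pyruvate, the end product of glycolysis, is oxidised to acetyl-CoA by the pyruvate dehydrogenase complex, and the TCA cycle oxidises acetyl-CoA further while it reduces NAD+ and ubiquinone for the respiratory chain. Kinases switch the complex off by phosphorylation and phosphatases switch it back on. Propionate can enter the cycle as succinyl-CoA, through carboxylation of propionyl-CoA and rearrangement of methylmalonyl-CoA, and excess propionyl-CoA can inhibit pyruvate dehydrogenase.

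None of the 35 genes passed the threshold in either direction (limma on log2(TPM + 1), Benjamini-Hochberg adjusted p under 0.05 over all genes), where 1.82% of all tested genes did (1.31% higher, 0.504% lower with propionate). TPM gives the level of a transcript per length, as a share of all transcripts in a library. At an unadjusted p under 0.05, 2 genes were higher with propionate, Pdp1 and Idh2, and 1 was lower, Suclg2, where 16.8% of all tested genes had such a p (7.93% higher, 8.9% lower). By limma's voom on aligned bases, 1 of the 35 passed, again Pdp1, on the higher side, where 5.1% of all genes were called higher and 7.68% in either direction. The libraries of the groups did not overlap for 13 of the 35 genes (37.1%), 7 with both propionate libraries above all 3 chloride libraries and 6 with both below. The same held for 34.6% of all tested genes (14.8% higher, 19.7% lower), so that share is near the background. In bulk RNA, fewer cells of a type and less RNA per cell cannot be told apart. The median log2 change over the 35 genes was 0.00 (18 above 0, 17 below), against -0.03 over all tested genes.

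With assembled transcripts counted, the size of change that these data allow was limited for most of the genes. The log2 changes lay between -0.34 (Suclg2) and 0.38 (Pdp1), with standard errors of 0.09 to 0.19. For 31 of the 35 genes the whole 95% interval of the change, not adjusted for the number of genes, lay within 0.5 of 0 on the log2 scale. The same held for 8094 of the 13879 tested genes. The exceptions among the 35 were Pdp1, Pdk2, Suclg2 and Got1, and no interval of the 35 went below -0.65 or above 0.64. These limits depend on which transcripts are summed. Over reference transcripts alone the change was -1.48 for Mpc1, a gene among the 31, and 0.64 for Suclg2. An interval that holds 0 does not show that a gene was unaffected.

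**Figure D1:**
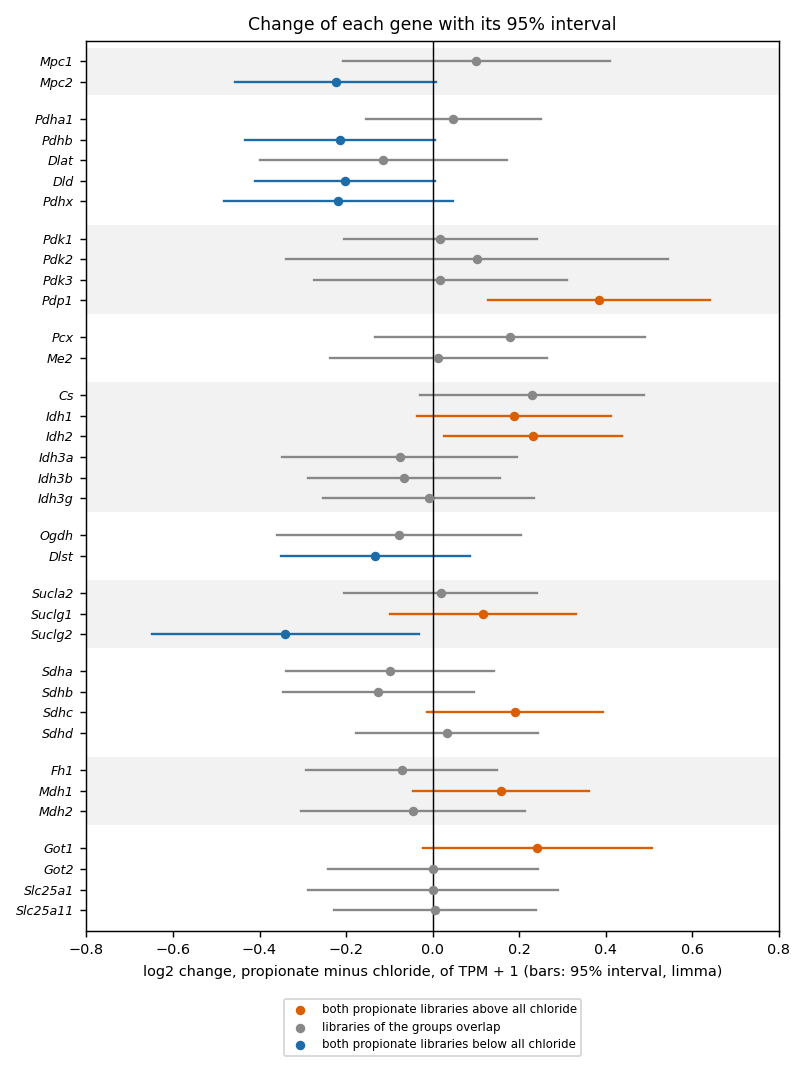
Difference of log2(TPM + 1) between propionate and chloride for each gene, with its 95% interval from limma (bars), in the order of the pathway. Shaded bands separate the roles, and colours mark genes whose libraries did not overlap. Points run from -0.34 for Suclg2 to 0.38 for Pdp1, and none passed the threshold over all genes.

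The propionate libraries held 6.59 and 6.75 Gb of aligned bases, and the chloride libraries 6.53 to 7.03 Gb, and a transcript at 1 TPM had a median coverage of 4.73 to 4.99 reads per base. Protein-coding genes held 45.2% of TPM in propionate replicate 2 and 50.3% in propionate replicate 3, against 46.7% to 49.1% in the chloride libraries. The remainder was mostly small and structural RNA. All 7 glioma or glial markers, among them Vim, Nes and Sox2, were above 1 TPM on average. The 7 microglial and macrophage markers summed to 0.109 to 0.316 TPM with propionate and 0.356 to 0.360 TPM with chloride, with Itgam, Tyrobp and C1qa listed at 0 in all 5 libraries. Markers of T cells, endothelium and neurons summed to at most 0.293 TPM with propionate and 0.118 TPM with chloride in any library. The 3 erythroid genes summed to 2.64 and 2.73 TPM with propionate and 1.61 to 2.61 TPM with chloride, with Hbb-bs listed at 0.

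The protein-coding share moved with nearly all of these genes. Propionate replicate 3 was above propionate replicate 2 for 34 of the 35, all but Sdhc, as it was for 80.3% of protein-coding genes tested. Against the chloride mean, propionate replicate 2 had a median log2 deviation of -0.11 over the 35 genes and propionate replicate 3 one of 0.11. After TPM was rescaled to an equal total over protein-coding genes, these medians were -0.03 and 0.04. On that scale the groups did not overlap for 19 of the 35 genes, 10 higher and 9 lower, a larger share than the 41.0% of all tested genes. The difference in shares was not tested, and still none of the 35 passed the threshold. All 35 are protein-coding, while the 41.0% includes genes that are not. Before rescaling, the groups did not overlap for 36.9% of protein-coding genes and 34.6% of all tested genes. The share of protein-coding genes after this rescaling was not computed. The part of library composition in the other results was not tested beyond this rescaling.

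**Figure D2:**
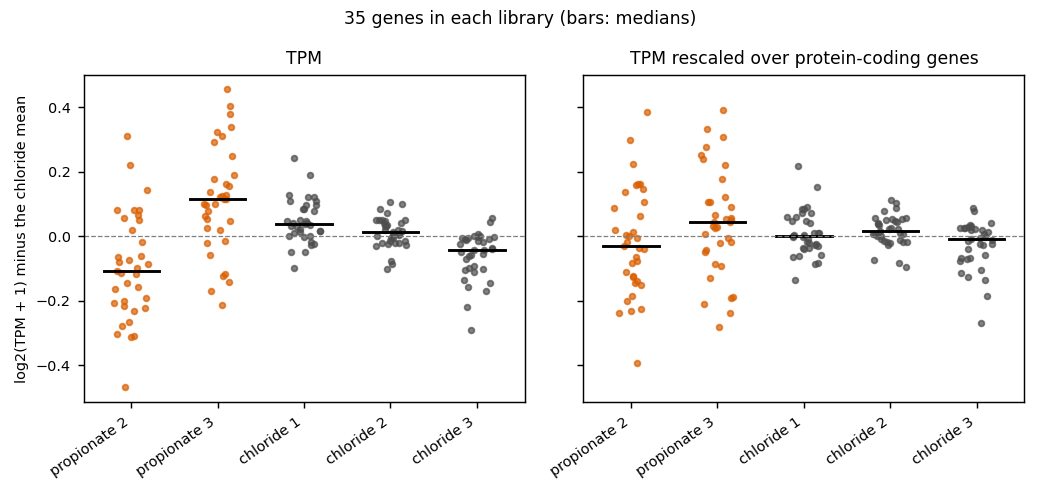
Deviation of each of the 35 genes from its chloride mean, on the log2(TPM + 1) scale, in each library, with medians as bars; left as deposited TPM, right after rescaling over protein-coding genes. The propionate medians are -0.11 and 0.11 on the left and -0.03 and 0.04 on the right.

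The ends of the order of levels were the same in both groups. Pdha1, Mdh1, Idh2 and Cs were the 4 highest and Pdhx, Pdp1, Pcx and Pdk2 the 4 lowest, in this order in each group. Pdha1 averaged 253 ± 16.6 TPM with propionate and 245 ± 12.2 TPM with chloride (SD, n = 2 and 3). At the other end, Pdk2 averaged 2.42 ± 0.179 TPM with propionate and 2.22 ± 0.587 TPM with chloride. Idh2 and Cs were neighbours whose libraries overlapped within each group, while every Mdh1 library stood above every library of both.

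**Figure D3:**
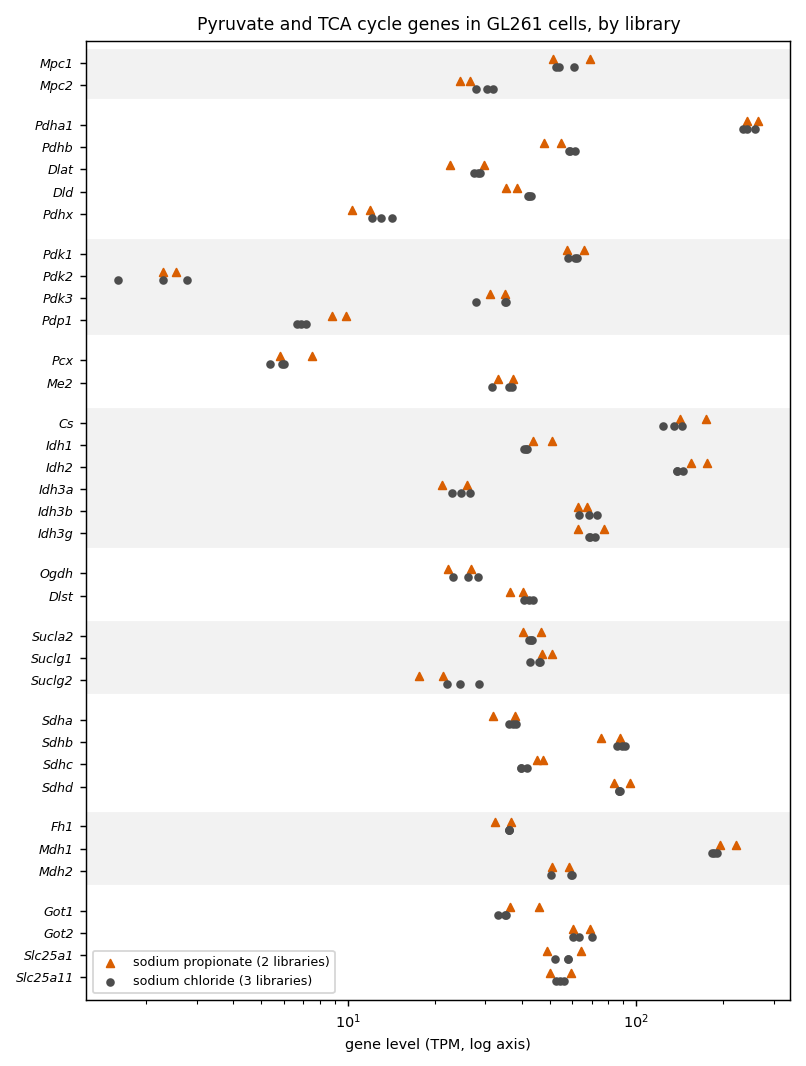
Level of each gene in each library (TPM, log axis), with propionate as triangles above chloride as circles, in pathway order. Pdk2 is the lowest, at 2.77 TPM or less, and Pdha1 the highest at 235 to 265 TPM, and the groups overlap for 22 of the 35 genes.

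Mpc1 and Mpc2 together form the carrier that brings pyruvate across the inner mitochondrial membrane. Mpc2 had 24.5 and 26.5 TPM in the propionate libraries, against 30.3, 31.8 and 27.9 TPM in the chloride libraries. Both propionate values lay below all chloride values, by a log2 change of -0.22 ± 0.10 (SE) that did not pass (adjusted p = 0.315). Mpc1 had 51.5 and 69.2 TPM with propionate and 60.6, 52.7 and 53.9 TPM with chloride, and the groups overlapped (adjusted p = 0.769). Its value is uncertain, because a processed pseudogene, Mpc1-ps, was listed at 45.6 and 56.7 TPM with propionate and 45.6, 39.0 and 44.7 TPM with chloride and can share its reads. An assembled transcript held 0.00% and 96.1% of Mpc1 TPM in the propionate libraries and 0.00%, 66.7% and 40.9% in the chloride libraries. Over reference transcripts alone its log2 change was -1.48, again without passing (adjusted p = 0.673).

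The pyruvate dehydrogenase complex is built from the subunits of its first enzyme (Pdha1, Pdhb), the acetyltransferase Dlat, the dehydrogenase Dld, which serves other 2-oxoacid dehydrogenase complexes as well, and the binding protein Pdhx. Pdha1, the catalytic alpha subunit on chromosome X, had 241 and 265 TPM with propionate and 258, 241 and 235 TPM with chloride, an overlap (log2 change 0.05 ± 0.09, adjusted p = 0.842). Part of its locus overlaps Map3k15 on the other strand, listed at 20.2 and 20.9 TPM with propionate and 17.9 to 19.7 TPM with chloride. Pdhb, the beta subunit, had 47.9 and 54.9 TPM with propionate and 58.6, 61.1 and 59.0 TPM with chloride. Both propionate libraries were below all chloride libraries, and the change of -0.21 ± 0.10 did not pass (adjusted p = 0.310). Dld and Pdhx were likewise lower in both propionate libraries than in any chloride library. Dld averaged 36.9 ± 2.31 TPM with propionate and 42.5 ± 0.573 TPM with chloride (adjusted p = 0.313), and Pdhx 11.1 ± 1.11 TPM with propionate and 13.1 ± 1.02 TPM with chloride (adjusted p = 0.387). Dlat averaged 26.1 ± 5.04 TPM with propionate and 28.1 ± 0.696 TPM with chloride, with overlapping libraries. The complex thus held 4 genes below 0 and 1 above, with a median of -0.20 and no gene past the threshold. Of all 13879 tested genes, 7701 lay below 0, and 19.7% had both propionate libraries below all chloride libraries. Whether the complex differs from these shares was not tested.

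The kinases Pdk1, Pdk2 and Pdk3 inactivate pyruvate dehydrogenase, and Pdp1 encodes the catalytic subunit of a phosphatase that reactivates it. Pdp1 (ENSMUSG00000049225, chromosome 4, 11958184 to 11966452, minus strand, mm10) had 8.82 and 9.84 TPM in the propionate libraries, against 6.65, 7.19 and 6.89 TPM in the chloride libraries. Both propionate libraries lay above all chloride libraries. The log2 change was 0.38 ± 0.11 (95% interval 0.13 to 0.64) with adjusted p = 0.135 and an unadjusted p of 0.00849, ranking 874 of 13879 genes. Over all settings its change ranged from 0.31 to 0.56 and its adjusted p from 0.00956 (voom) to 0.377. After rescaling over protein-coding genes it stood at 9.32 and 9.36 TPM with propionate and 6.47, 7.21 and 7.05 TPM with chloride, so the distance was not smaller there.

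The estimates for single transcripts of Pdp1 varied more than the gene. Its leading transcript (4201 bases) had 6.93 and 8.08 TPM with propionate and 4.71, 4.21 and 3.78 TPM with chloride, and the next (2635 bases) had 1.57 and 0.374 TPM with propionate and 1.14, 2.98 and 3.11 TPM with chloride. The leading transcript was higher in both propionate libraries, and the next one overlapped. Aligned bases weight a transcript by its length, and TPM does not. Whether that bears on the voom result of Pdp1 was not tested. Of the kinases, Pdk1 was the most abundant and had 57.3 and 65.7 TPM with propionate and 62.4, 61.5 and 58.0 TPM with chloride (adjusted p = 0.952). Pdk3 averaged 33.0 ± 2.78 TPM with propionate and 32.7 ± 4.25 TPM with chloride, and for both kinases the groups overlapped. Pdk4, a kinase induced by fasting in many tissues and not one of the 35, was listed at 0 in all 5 libraries.

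Pcx, pyruvate carboxylase, and Me2, a mitochondrial malic enzyme, link pyruvate with the 4-carbon acids of the cycle. Pcx had 5.84 and 7.54 TPM with propionate and 5.90, 5.36 and 6.03 TPM with chloride, where propionate replicate 3 was the highest and replicate 2 lay among the chloride libraries (adjusted p = 0.558). Me2 had 33.1 and 37.4 TPM with propionate and 37.0, 36.1 and 31.6 TPM with chloride (adjusted p = 0.970). Neither gene separated the groups.

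Citrate synthase (Cs) condenses acetyl-CoA with oxaloacetate, and isocitrate is then oxidised either by the NAD-dependent enzyme of Idh3a, Idh3b and Idh3g or by the NADP-dependent enzymes Idh2 in mitochondria and Idh1 in the cytosol. Idh2 (ENSMUSG00000030541, chromosome 7, 80094846 to 80115392, minus strand) had 155 and 176 TPM in the propionate libraries, against 139, 138 and 145 TPM in the chloride libraries. All propionate values were above all chloride values, by 0.23 ± 0.09 (95% interval 0.03 to 0.44), which missed the threshold (adjusted p = 0.245). Idh1 averaged 47.3 ± 4.95 TPM with propionate and 41.3 ± 0.506 TPM with chloride, also without overlap (adjusted p = 0.382), but its change was -0.04 over reference transcripts alone. Cs had 142 and 174 TPM with propionate and 143, 135 and 124 TPM with chloride, and overlapped by 1 library (0.23 ± 0.11, adjusted p = 0.356). The 3 subunits of the NAD-dependent enzyme had changes of -0.08 (Idh3a), -0.07 (Idh3b) and -0.01 (Idh3g) and overlapped between groups. Idh3b shares bases with Nop56 on the other strand, listed at 74.2 and 85.7 TPM with propionate and 103 to 104 TPM with chloride, and with no strand option their reads may not be separable.

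Ogdh and Dlst encode the dehydrogenase and the succinyltransferase of the 2-oxoglutarate dehydrogenase complex, which makes succinyl-CoA and shares Dld with pyruvate dehydrogenase. Dlst had 36.6 and 40.6 TPM with propionate and 42.3, 43.8 and 40.9 TPM with chloride. The propionate libraries were both lower, with replicate 3 just under the lowest chloride library (-0.13 ± 0.09, adjusted p = 0.532). Ogdh averaged 24.5 ± 3.09 TPM with propionate and 25.8 ± 2.55 TPM with chloride and overlapped.

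Succinyl-CoA ligase uses succinyl-CoA, the form in which carbon from propionate enters the cycle. It pairs the alpha subunit Suclg1 with either the beta subunit Sucla2, which makes ATP, or Suclg2, which makes GTP. Suclg2 (ENSMUSG00000061838, chromosome 6, 95473009 to 95718800, minus strand) had 17.7 and 21.3 TPM in the propionate libraries, against 28.5, 24.5 and 22.0 TPM in the chloride libraries. Both propionate libraries were below all chloride libraries, the nearest by a small margin. The change of -0.34 ± 0.13 (95% interval -0.65 to -0.03) was the lowest among the 35 genes and did not pass (adjusted p = 0.254). Sucla2 had no such distance, with 43.6 ± 4.53 TPM with propionate and 43.0 ± 0.402 TPM with chloride (adjusted p = 0.952). Suclg1 had 46.9 and 51.1 TPM with propionate and 46.4, 46.1 and 42.8 TPM with chloride, slightly above (0.12 ± 0.09, adjusted p = 0.582).

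The direction of Suclg2 depended on which transcripts were counted. The full-length reference transcript held 98.6% and 99.7% of its TPM in the propionate libraries and 0.00%, 74.5% and 85.5% in the chloride libraries. In chloride replicate 1 a pair of assembled transcripts took 53.3% and 34.2% in its place. Over reference transcripts alone the log2 change of Suclg2 was 0.64 (adjusted p = 0.760). Without chloride replicate 1 and with assembled transcripts counted, it was -0.24.

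The beta subunits are alternatives in the same enzyme, and their promoters are given with that of Sdhd, the gene of the 35 with most of the motif matches named here (RefSeq, GRCm38.p6, 250 bases before to 50 after the start, on the gene's own strand, 5′ to 3′). Capitals mark matches, on either strand, to the palindromic NRF1 motif, the ERR motif TCAAGGTCA and the E-box CACGTG. NRF1 and the ERR factors are known regulators of mitochondrial genes, and the E-box is bound by MYC among others.
Suclg2, chr6:95718797-95719096, minus strand: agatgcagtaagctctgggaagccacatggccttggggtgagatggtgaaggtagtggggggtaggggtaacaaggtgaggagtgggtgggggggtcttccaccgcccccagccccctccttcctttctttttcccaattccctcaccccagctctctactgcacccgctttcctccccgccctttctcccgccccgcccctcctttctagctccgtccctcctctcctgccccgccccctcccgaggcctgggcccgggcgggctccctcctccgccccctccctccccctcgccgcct
Sucla2, chr14:73552536-73552835, plus strand: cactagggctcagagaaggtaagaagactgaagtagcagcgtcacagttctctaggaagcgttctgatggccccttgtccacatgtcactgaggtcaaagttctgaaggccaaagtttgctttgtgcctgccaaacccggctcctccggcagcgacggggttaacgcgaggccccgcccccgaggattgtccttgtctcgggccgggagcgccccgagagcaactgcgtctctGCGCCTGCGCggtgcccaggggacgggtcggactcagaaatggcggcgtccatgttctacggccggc
Sdhd, chr9:50603800-50604099, minus strand: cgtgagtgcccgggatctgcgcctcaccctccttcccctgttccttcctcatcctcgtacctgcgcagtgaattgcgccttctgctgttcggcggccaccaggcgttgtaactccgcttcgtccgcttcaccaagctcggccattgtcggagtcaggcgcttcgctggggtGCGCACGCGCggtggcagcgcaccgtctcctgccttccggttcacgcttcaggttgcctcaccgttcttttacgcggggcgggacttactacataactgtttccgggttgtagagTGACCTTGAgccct
The NRF1 letters were present once in the Sucla2 window and were not found in that of Suclg2. In the Sdhd window both the NRF1 and the ERR letters were present. Of the 31 genes with a promoter in the table, 4 held the NRF1 letters (Dld, Sucla2, Sdha and Sdhd), 1 the ERR letters and 4 the E-box (Ogdh, Pcx, Pdk2 and Slc25a1). Among all 27025 genes in the table these shares were 5.19%, 0.466% and 8.09%. The 4 genes with the NRF1 letters had log2 changes of -0.20 (Dld), 0.02 (Sucla2), -0.10 (Sdha) and 0.03 (Sdhd), in no common direction. A match is a run of letters and does not show binding.

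Succinate dehydrogenase, which is also complex II of the respiratory chain, consists of the flavoprotein Sdha, the iron-sulphur protein Sdhb and the membrane anchors Sdhc and Sdhd. Sdhc had 47.3 and 45.4 TPM with propionate and 41.8, 39.9 and 39.7 TPM with chloride. Both propionate libraries were higher, and here replicate 2 exceeded replicate 3 (0.19 ± 0.09, adjusted p = 0.330). Sdhd had 83.5 and 95.3 TPM with propionate and 87.7, 86.9 and 86.8 TPM with chloride, so the propionate libraries lay on both sides of a narrow chloride range. Sdha and Sdhb averaged 34.8 ± 4.35 and 81.4 ± 8.54 TPM with propionate and 37.2 ± 1.01 and 88.7 ± 2.75 TPM with chloride, with changes of -0.10 and -0.13 and overlapping groups. Sdhd and Sdhb were the more abundant pair of the 4 in every library.

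Fh1, fumarate hydratase, makes malate, which Mdh2 oxidises to oxaloacetate in mitochondria and Mdh1 in the cytosol. Mdh1 had 195 and 221 TPM with propionate and 190.0, 183 and 185 TPM with chloride. The propionate libraries were above all chloride libraries, replicate 2 only narrowly (0.16 ± 0.09, adjusted p = 0.413). Mdh2 averaged 54.8 ± 5.36 TPM with propionate and 56.7 ± 5.32 TPM with chloride, while Fh1 averaged 34.5 ± 3.17 TPM with propionate and 36.2 ± 0.0446 TPM with chloride. Both overlapped between the groups. Mdh1 overlaps Wdpcp on the other strand, which was listed at 15.1 and 16.1 TPM with propionate and 14.1 to 15.4 TPM with chloride.

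Got1 and Got2 are the cytosolic and mitochondrial aspartate aminotransferases of the malate-aspartate shuttle, Slc25a11 is its malate and 2-oxoglutarate carrier, and Slc25a1 exports citrate. Got1 had 36.5 and 46.0 TPM with propionate and 35.4, 34.9 and 33.2 TPM with chloride. Its propionate libraries were both higher, with most of the distance in replicate 3 (0.24 ± 0.12, adjusted p = 0.339). Got2 had 60.3 and 69.1 TPM with propionate and 70.3, 63.1 and 60.5 TPM with chloride, and the groups overlapped. A pseudogene, Got2-ps1, was listed at 2.04 and 7.06 TPM with propionate and 1.28 to 1.41 TPM with chloride, and coverage can move between it and Got2. Slc25a11 and Slc25a1 averaged 54.7 ± 6.51 and 56.6 ± 10.7 TPM with propionate and 54.3 ± 1.74 and 56.2 ± 3.36 TPM with chloride, with overlapping groups.

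Ratios of 2 genes within a library do not depend on the scaling of that library, so 14 were formed between subunits, isoenzymes or opposing enzymes. The pairs were chosen after the levels were seen, and with 2 against 3 libraries an exact permutation test cannot give a p under 0.1, so they are a description. Of the 14, 10 did not overlap between the groups (8 higher, 2 lower with propionate), a tally with no background to read it against. Pdp1 over Pdk1 was 0.154 and 0.150 with propionate and 0.107, 0.117 and 0.119 with chloride. Pdhb over Pdha1 was 0.198 and 0.207 with propionate and 0.227, 0.254 and 0.252 with chloride. Suclg2 over Sucla2 was 0.437 and 0.455 with propionate and 0.658, 0.575 and 0.511 with chloride. The last of these rests on the assembled transcripts: over reference transcripts alone, a comparison added after seeing the data, it was 0.437 and 0.455 with propionate and 0.0882, 0.533 and 0.461 with chloride, an overlap. For 2 pairs of isoenzymes, but not for Idh1 and Idh2, cytosolic over mitochondrial was above all chloride libraries in both propionate libraries. Mdh1 over Mdh2 was 3.81 and 3.78 with propionate and 3.17, 3.07 and 3.66 with chloride, and Got1 over Got2 was 0.606 and 0.665 with propionate and 0.504, 0.554 and 0.548 with chloride. Idh2 over Idh3a was 7.33 and 6.79 with propionate and 6.01, 5.19 and 5.87 with chloride. Sdhc over Sdhb was 0.628 and 0.519 with propionate and 0.488, 0.437 and 0.446 with chloride. Suclg1 over Sucla2, Mpc1 over Mpc2 and Pdp1 over Pdk3 were also higher in both propionate libraries. The ratios Dlat over Pdha1, Pdhx over Dlat, Sdha over Sdhb and Idh2 over Idh1 overlapped between the groups. Over reference transcripts alone 8 of the 14 did not overlap. Suclg2 over Sucla2, Suclg1 over Sucla2 and Mpc1 over Mpc2 then overlapped. Idh2 over Idh1, mitochondrial over cytosolic, no longer did and was higher in both propionate libraries than in any chloride library.

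**Figure D4:**
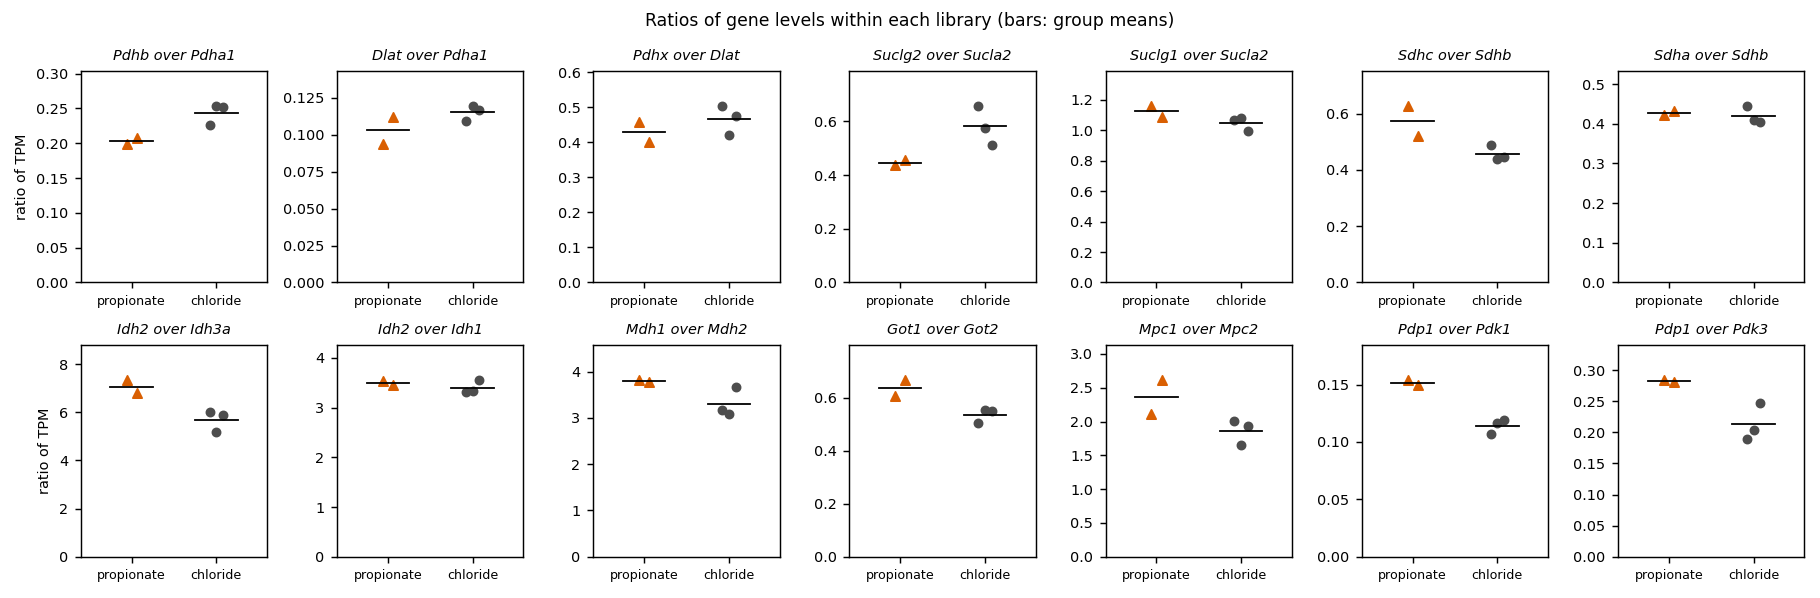
Ratios of the TPM of 2 genes within each library (triangles, propionate; circles, chloride; bars, group means; each axis starts at 0). Pdp1 over Pdk1 sits at 0.154 and 0.150 with propionate, above the 0.107 to 0.119 of chloride, and Suclg2 over Sucla2 at 0.437 and 0.455, below the 0.511 to 0.658 of chloride. Over reference transcripts alone, not plotted, Suclg2 over Sucla2 overlapped between the groups.

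The 35 genes had 221 transcripts in the files, of which 26, in 15 genes, were assembled from the reads. None of the 26 overlapped another gene of the same locus and strand, and genes on the other strand were not counted here. The leading transcript held at least 90% of the gene's TPM in every library for 18 genes. For 6 genes it was under 50% in at least 1 library. Mdh1 was divided between 2 reference transcripts, the leading one at 61.7% and 89.8% with propionate and 52.7%, 52.4% and 75.2% with chloride. In Idh3a the leading transcript held 54.7% and 14.5% with propionate and 65.4%, 51.8% and 56.8% with chloride, so propionate replicate 3 stood apart from the other 4 libraries. The sums over all transcripts of Mdh1 and Idh3a spread far less than these shares did, at 183 to 221 TPM and 21.1 to 26.6 TPM over the 5 libraries.

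**Figure D5:**
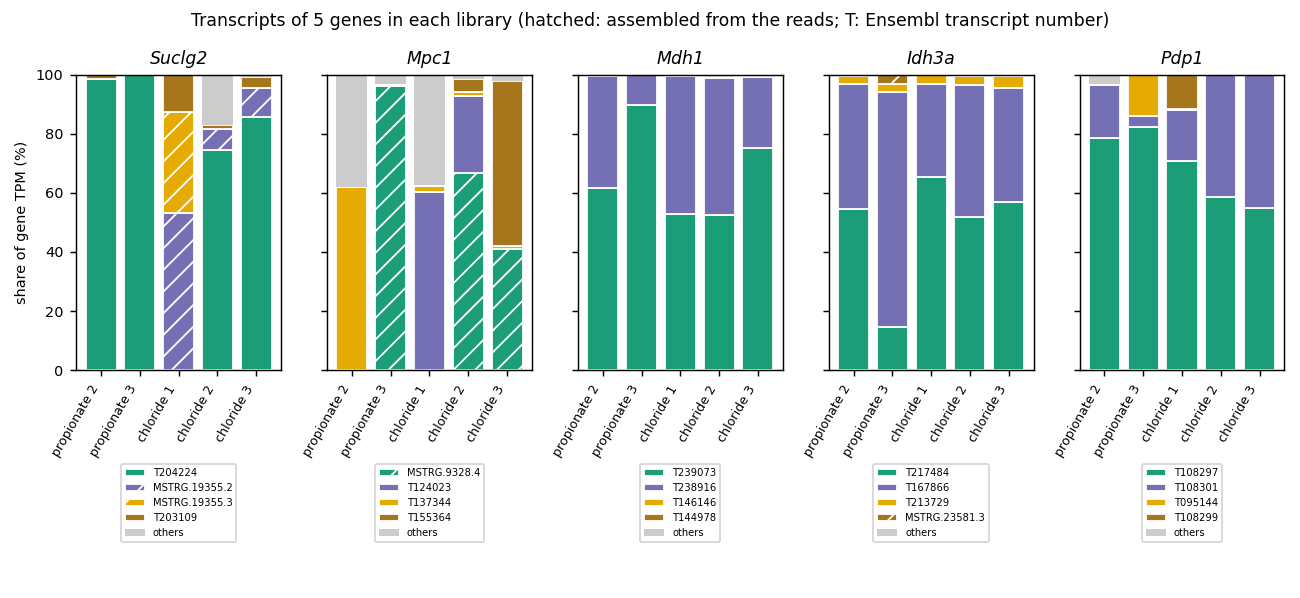
Share of gene TPM (%) assigned to each of the 4 leading transcripts and to the others, in each library, for Suclg2, Mpc1, Mdh1, Idh3a and Pdp1 (hatched, assembled from the reads). The leading Suclg2 transcript is listed at 0 in chloride replicate 1 only, and that of Mpc1 holds between 0.00% and 96.1% across the libraries.

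A further list held 34 genes of the pathway outside the 35, among them the aconitases, lipoate synthesis, assembly factors of succinate dehydrogenase, acetate activation and further carriers. It was written with earlier results of these data known. Of these, 31 were tested, while Pdk4 and Pck1 were listed at 0 and Me3 was under 0.1 TPM in every library. None of the 31 passed (limma, adjusted p under 0.05), where 1.82% of all tested genes did. At an unadjusted p under 0.05, 3 were higher (7.93% of all tested genes) and 2 lower (8.9%), a share near the background of 16.8%. The median log2 change was 0.04. Adhfe1, a mitochondrial hydroxyacid transhydrogenase that uses 2-oxoglutarate, had 5.99 and 5.79 TPM with propionate and 3.91, 4.50 and 3.77 TPM with chloride (0.45 ± 0.13, adjusted p = 0.130), and passed by voom (adjusted p = 0.0362). Slc25a13, an aspartate-glutamate carrier of the malate-aspartate shuttle, had 16.4 and 19.0 TPM with propionate and 24.6, 21.1 and 22.3 TPM with chloride (-0.34 ± 0.11, adjusted p = 0.179). Slc25a12, the other aspartate-glutamate carrier, named after its values were seen, lay on the opposite side. It had 15.5 and 16.6 TPM with propionate and 13.8, 13.4 and 13.2 TPM with chloride, also without overlap (0.24 ± 0.10, adjusted p = 0.276). The acetyl-CoA synthetases differed in direction as well. The cytosolic Acss2 averaged 8.96 ± 0.170 TPM with propionate and 7.21 ± 0.325 TPM with chloride (adjusted p = 0.244), and the mitochondrial Acss1 6.56 ± 0.0363 TPM with propionate and 8.23 ± 0.671 TPM with chloride (adjusted p = 0.263).

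The enzymes that carry propionyl-CoA to succinyl-CoA did not pass either. Pcca and Pccb, the subunits of propionyl-CoA carboxylase, averaged 5.72 and 8.48 TPM with propionate and 5.67 and 10.3 TPM with chloride. Mcee, the epimerase between the carboxylase and the mutase, had 24.6 and 23.7 TPM with propionate and 18.9, 19.6 and 19.5 TPM with chloride. Both propionate libraries were higher, by 0.31 ± 0.09 (unadjusted p = 0.0101 by limma, adjusted p = 0.146). Mcee was given in this detail after its values were seen. The log2 changes of Pcca, Pccb and Mmut were 0.01, -0.26 and -0.08, with overlapping groups. Mmut, the mutase that makes succinyl-CoA, averaged 35.2 TPM with propionate and 37.2 TPM with chloride, a level near that of Sucla2.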

How the data were processed

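Libraries of total RNA (2 of propionate, 3 of chloride) were made with a stranded TruSeq kit, per the labels' protocols. Tools listed in the submitters' processing notes are HISAT2, StringTie, fastp and bcl2fastq, with mm10 as the build. Per the file headers, StringTie 2.1.1 estimated coverage, FPKM and TPM of each transcript of 1 merged annotation, with no strand option, so the deposited values are TPM, FPKM and coverage signal and hold no read counts.

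The files list 157895 transcripts. Their genes and all gene coordinates were taken from GENCODE M21 (GRCm38), with an equal start for 99.81% of the transcripts found there. Assembled transcripts (12224) were added to the gene of their locus and strand with which their exons overlap most. Gene TPM is the sum over transcripts. Genes with a mean of at least 1 TPM over the 5 libraries entered limma's moderated test with a mean-variance trend (version 3.58.1, R 4.3.3), two-sided, on log2(TPM + 1), with no term but group, Benjamini-Hochberg adjustment over all 13879 genes and a threshold of 0.05. Fold changes on this scale understate those of low genes. The procedure was tested on simulated data, with set changes larger than that of any of the 35 genes in this fit. That test therefore does not show how well changes of their size would be found. No 2 libraries were identical.

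The 35 genes, the further list and the tests were chosen with earlier results of these data known. Values in every library are given, for each role, for the gene with the smallest unadjusted p and the most abundant gene. They are also given for Cs, Slc25a12 and Mcee, chosen after their values were seen. Of the further list, the 4 with the smallest p are named. Alternatives were reference transcripts only, FPKM, 2 rescalings, a pseudocount of 0.1, a minimum of 5 TPM or none, voom on coverage times length divided by 100, a replicate block and leaving out each library.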

Additional observations from a re-analysis of the deposited data

How the results depend on the processing

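No gene of the 35 passed under any of the 14 alternatives except Pdp1 with voom on aligned bases (1 gene higher, 0.56). Over all genes the calls were 182 higher and 70 lower, and the cause of the following shifts was not tested. They were 5 and 6 over reference transcripts only, 349 and 185 when TPM was rescaled to protein-coding genes, 370 and 157 by median-of-ratios size factors, 2 and 1 with no minimum and 708 and 358 with voom. With 1 library left out they ran from 8 to 127 higher and from 7 to 47 lower, the lowest in both without propionate replicate 3. The median of the 35 genes ran from -0.11 without propionate replicate 3 to 0.11 without propionate replicate 2. Replicate numbers 2 and 3 occur in both groups, and deviations from the group means correlated at -0.22 and -0.19. The deviations of the 2 propionate libraries mirror each other, so these values cannot show whether the numbers mark a pairing. With the replicate block 266 genes were higher and 104 lower, and none of the 35. Replicate 1 occurs only in chloride, so the block leaves that library no weight in the comparison. The log2 changes with the block therefore equal those without chloride replicate 1.

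The changes that turned sign included those of Suclg2 (-0.34 with assembled transcripts) and Idh1 (0.19), which were not near 0. Over reference transcripts only, Mpc1 was at -1.48, Suclg2 at 0.64, Idh1 at -0.045 and Slc25a11 at -0.028. By median-of-ratios size factors Idh3g was at 0.014, Got2 at 0.023 and Slc25a1 at 0.023. Over protein-coding TPM, Got2 was at 0.0045 and Slc25a1 at 0.0043, with voom at 0.019 and 0.016, and with the replicate block at 0.061 and 0.024. With 1 library left out, changes ran from -0.11 to 0.31 for Mpc1, -0.019 to 0.11 for Pdha1, -0.30 to 0.077 for Dlat, -0.079 to 0.11 for Pdk1, -0.043 to 0.22 for Pdk2, -0.091 to 0.10 for Pdk3, -0.073 to 0.10 for Me2, -0.22 to 0.064 for Idh3a, -0.16 to 0.14 for Idh3g, -0.20 to 0.047 for Ogdh, -0.086 to 0.12 for Sucla2, -0.22 to 0.026 for Sdha, -0.062 to 0.13 for Sdhd, -0.16 to 0.020 for Fh1, -0.14 to 0.052 for Mdh2, -0.10 to 0.10 for Got2, -0.19 to 0.19 for Slc25a1 and -0.11 to 0.12 for Slc25a11. With 2 and 3 libraries, changes under about 0.24 on the log2 scale could not be told from 0 for a typical gene of the 35. This is the median distance from a change to the end of its interval, not adjusted for the number of genes. Over all tested genes that distance was 0.29.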
